A study of Mus musculus with 15 samples.

Results

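Imprinted genes are read mainly from the copy inherited from the mother or mainly from the copy inherited from the father. Levels of 34 listed mouse imprinted genes were described in single nuclei from the dorsal hippocampal formation (dHF) of female mice, per class of nuclei and per reproductive history. All 34 listed genes were found by symbol among the 32285 genes of the count tables, each in 1 entry. The punches came from 15 C57BL6/J females, with 1 library of nuclear RNA per mouse. The 6 nulliparous (NP) mice were age-matched virgins. The 4 control RE mice had gone through reproductive experience (RE), that is breeding, pregnancy, birth, lactation and care of a litter, with tissue taken weeks after weaning. The 5 stress RE mice had the same experience, with little nesting material and daily separation from the pups late in the postpartum period. The comparisons address whether reproductive experience, with or without that stress, left a lasting difference in the dHF. All mice were of 1 inbred strain, so the parental origin of a transcript could not be read, and every level below sums both copies of a gene.

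Most imprinted genes lie in domains, in which a stretch of DNA that is methylated on the maternal or the paternal copy sets the expression of several neighbours. A domain often pairs protein-coding genes with a long non-coding RNA. Airn and Kcnq1ot1 are such RNAs, read from the paternal copy and known for silencing neighbours on it, while Meg3, Rian and Mirg are read from the maternal copy. Some genes are imprinted in certain cells and not in others: Ube3a, a ubiquitin ligase whose maternal loss gives Angelman syndrome, is imprinted in neurons, where the long antisense RNA Snhg14 silences its paternal copy. In the brain the family is known for work on growth, feeding, maternal care and neurogenesis.

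Several members are also host transcripts of small RNAs, and the sequences of some of these products are shown because they are what the host RNA of a domain is cut into. By position and strand in RefSeq (GRCm38.p6), 26 mature miRNAs lay within Mirg, 6 within Rian, 4 within Calcr, 3 within Meg3 and 2 each within Usp29, Mest, Igf2 and H19. The libraries counted host transcripts, not mature miRNAs. Capitals mark the seed, bases 2 to 8 from the 5′ end, through which a miRNA pairs with its targets. The pair from Mirg listed first shared a seed, and no other seed was shared among the hosted miRNAs.
mmu-miR-453 (Mirg): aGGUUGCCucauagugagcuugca
mmu-miR-496a-5p (Mirg): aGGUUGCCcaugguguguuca
mmu-miR-134-5p (Mirg): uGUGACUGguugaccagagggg
mmu-miR-410-3p (Mirg): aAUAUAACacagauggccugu
mmu-miR-370-3p (Rian): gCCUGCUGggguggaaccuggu
mmu-miR-770-5p (Meg3): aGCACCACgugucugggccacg
mmu-miR-335-5p (Mest): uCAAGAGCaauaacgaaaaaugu
mmu-miR-483-3p (Igf2): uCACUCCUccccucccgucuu
mmu-miR-675-3p (H19): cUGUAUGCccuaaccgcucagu

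The 250 bases before the start of Meg3, at chr12:109540746-109540995 on the plus strand of GRCm38.p6, and those before Airn, at chr17:12741061-12741310 on the plus strand, are shown as the starts of the non-coding RNAs that lead their domains below. Capitals mark TGCCGC or its reverse complement GCGGCA, the letters bound by ZFP57, a factor known for keeping methylation at imprinted domains.
Meg3 upstream: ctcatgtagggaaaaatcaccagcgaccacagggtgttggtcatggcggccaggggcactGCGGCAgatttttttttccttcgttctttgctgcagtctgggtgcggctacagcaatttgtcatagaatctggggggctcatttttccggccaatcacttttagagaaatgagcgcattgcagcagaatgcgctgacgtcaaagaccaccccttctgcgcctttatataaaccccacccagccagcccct
Airn upstream: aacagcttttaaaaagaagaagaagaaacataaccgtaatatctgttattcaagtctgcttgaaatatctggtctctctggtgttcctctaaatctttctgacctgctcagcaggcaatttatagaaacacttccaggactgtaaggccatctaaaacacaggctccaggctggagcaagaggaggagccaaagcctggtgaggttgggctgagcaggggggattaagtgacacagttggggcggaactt
The Meg3 stretch held 1 such hexamer and the Airn stretch held 0. In windows from 250 bases before to 50 after the start, the hexamer stood on either strand in 11 of 43 promoters of 27 members, or 25.6%, against 3813 of 32851 promoters of all genes in the table, or 11.6%. Overlapping windows of Mest held the same hexamers and were both counted. By gene, the hexamer stood in 10 of 27 members and 3527 of 27025 genes. The median promoter held 13 CpG sites for the members and 7 for all genes. The hexamer holds a CpG itself, and the part of CpG content in these shares was not tested. Promoter entries were matched for 27 of the 34 members. A match is a description of the letters and not of binding.

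The libraries held 40602582 to 96211264 UMIs (unique molecular identifiers, each standing for 1 counted RNA molecule) over 5789 to 12738 barcodes. After filters and doublet removal, 123833 of 134019 barcodes fell into 30 classes, 16 of neurons, 10 of non-neuronal cells and 4 clusters that could not be named from markers. Hippocampal markers named dentate granule, CA1, CA2, subiculum and mossy cell classes. Thalamic or habenular, cortical excitatory, choroid plexus and ependymal classes were also present, so the punches reached beyond the dHF. Whether GABAergic cluster 36, described next, lay in the dHF was not tested. GABAergic clusters are given by number: 4 is led by Pax3 and Ebf3, 6 by Cpa6 and Ano2, 9 by Dlx1 and Top2a, 29 by Otx2 and Npsr1, and 36 by the striatal genes Drd2 and Rgs9. Unnamed cluster 5 is led by Ebf1 and Ebf2 and unnamed cluster 3 by Abhd12b and Stk32b. Between any pair of libraries 6 to 47 barcodes were shared, 0.104% to 0.461% of the smaller library. The counts carry no correction for free RNA.

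The 34 genes took 0.940% ± 0.117 (SD, n = 15 mice) of all UMIs of a punch. Their share was highest in unnamed cluster 5, at 2.08% ± 0.116, and lowest in newly formed oligodendrocytes, at 0.231% ± 0.0555. Without the large non-coding RNA Meg3, unnamed cluster 5 had 0.748% ± 0.0397 and newly formed oligodendrocytes 0.172% ± 0.0243. Dentate granule neurons, the most numerous class, had a lower share than CA1 neurons, with 0.499% ± 0.0197 against 1.06% ± 0.0656 including Meg3.

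Levels per class are given as counts per 1000000 UMIs (CPM) of the class in a mouse, as the mean ± SD over the mice that gave the class 10 nuclei or more. They are comparable between classes for 1 gene and not between genes, since they are not scaled to gene length. Differences between classes are described without a test, because the classes were made from the same nuclei. Of the 34 genes, 17 had a higher median over neuron classes than over non-neuronal classes, 15 had a lower one, and both medians were 0 for H19 and Phlda2. The ratio of the medians was 2 or more for 13 genes and 0.5 or less for 6. Choroid plexus was the highest class for 5 members, and unnamed cluster 5 and vascular leptomeningeal cells for 4 each. These counts include H19 for choroid plexus and Phlda2 for vascular leptomeningeal cells, with 28 and 10 UMIs in all. In 3 members, Airn, Igf2r and Sgce, the same class was highest in every mouse that could be compared, and in 9 members the highest class stood at least 2-fold above the next.

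**Figure D1:**
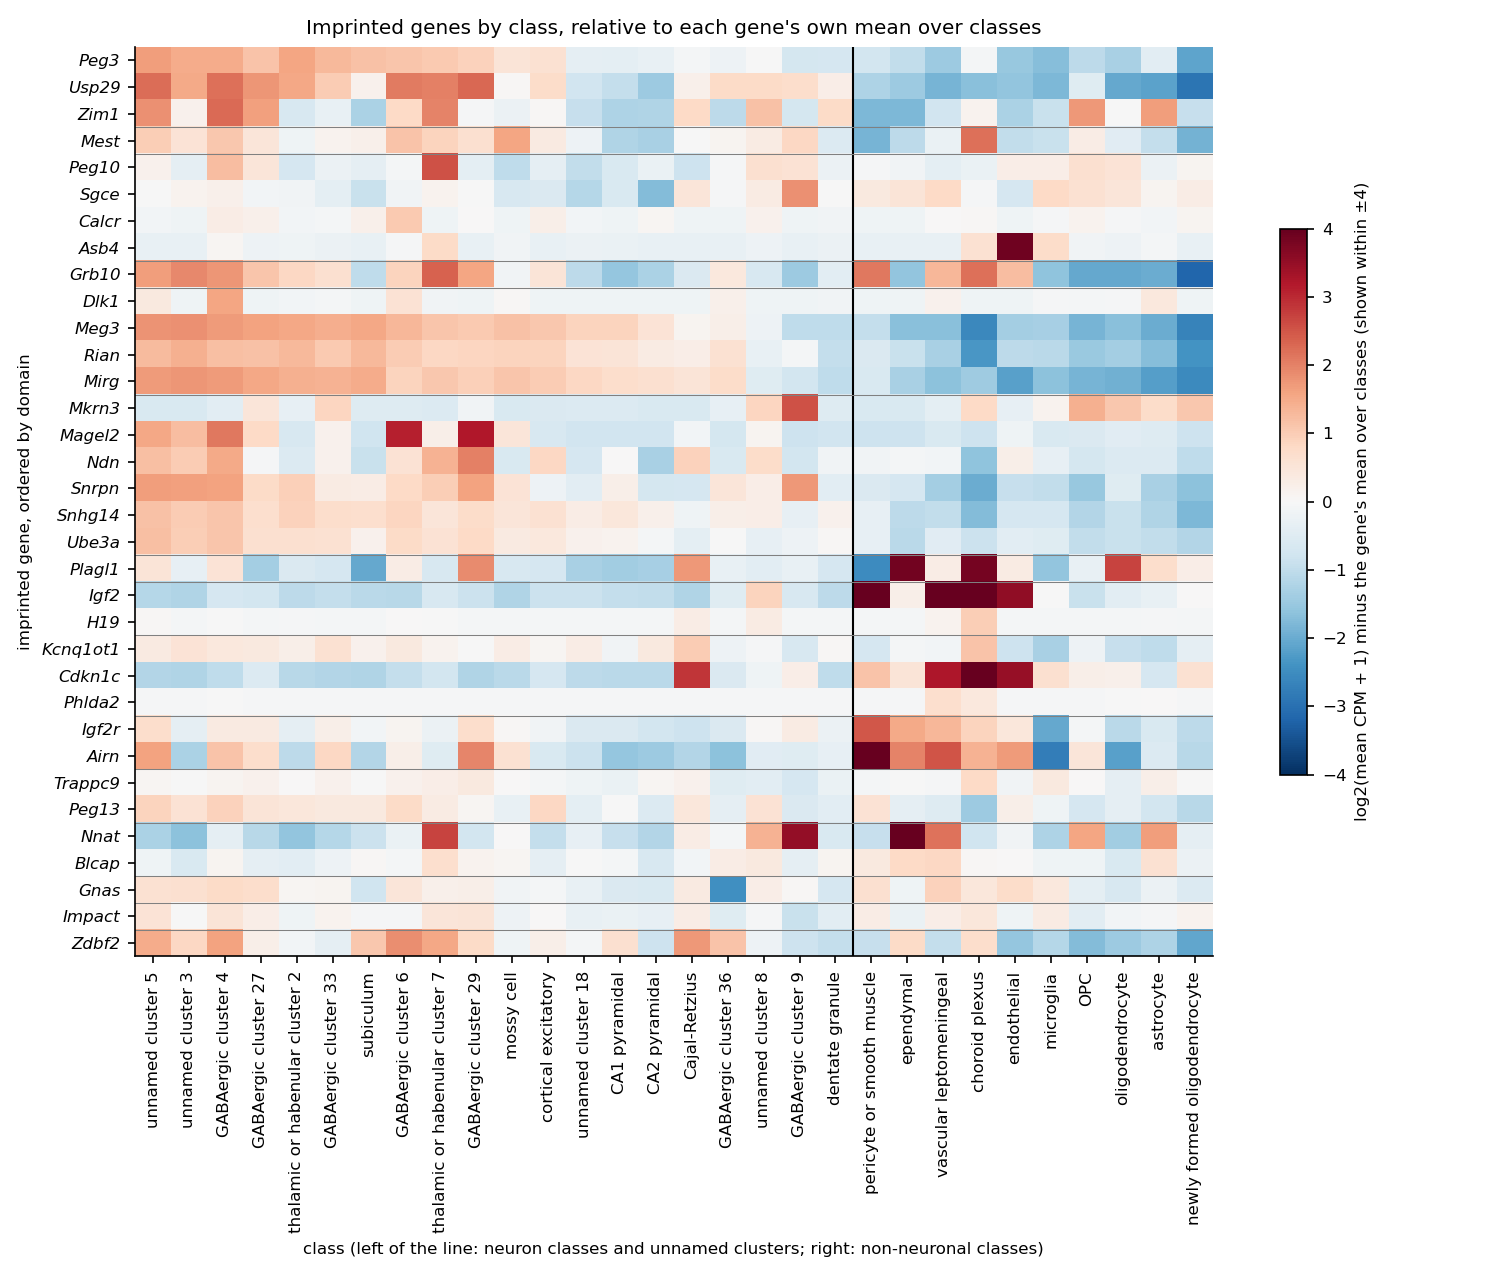
Heat map of the 34 imprinted genes (vertical axis, ordered by domain) over 30 classes (horizontal axis), as log2(mean CPM + 1) minus the gene's own mean over classes, shown within ±4. Meg3, Rian, Mirg, Peg3, Usp29, Snrpn, Snhg14 and Ube3a are red towards the neuron side, and Igf2, Cdkn1c and Airn are red in vascular, meningeal or choroid plexus classes.

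The non-coding RNAs of the Dlk1-Meg3 domain on chromosome 12 were higher in neurons than in glia. Meg3 (12:109541001-109571726) had 13552 CPM ± 1481 in unnamed cluster 3 (n = 8), 13317 CPM ± 1265 in unnamed cluster 5 and 12447 CPM ± 1404 in GABAergic cluster 4 (n = 15 each), levels that overlapped within their spread. CA1 neurons had 6980.3 CPM ± 773 and dentate granule neurons 1877 CPM ± 308, the latter within the range of glia and vascular cells, where class means ran from 598 CPM in newly formed oligodendrocytes to 1981 CPM in pericytes or smooth muscle. Rian, which hosts small nucleolar RNAs and miRNAs, had a median of 817 CPM over neuron classes and 178 CPM over non-neuronal classes. Mirg had medians of 120.3 and 17.1 CPM. Dlk1, the protein-coding partner read from the paternal copy and a regulator of neural stem cells, was close to absent, with 167 UMIs in all 15 libraries, and was highest in GABAergic cluster 4 at 2.34 CPM ± 3.42.

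Over the 30 classes, the gene most like Meg3 among 17919 genes was Rian, with a Pearson r of 0.986 on log2(mean CPM + 1). B830012L14Rik, a non-coding RNA at 12:109695586-109702587 between Rian and Mirg, came next at 0.983. Snhg14 followed at 0.970, Mirg at 0.960 and Snhg11, on chromosome 2, at 0.956. The 30 points share libraries, and nuclei of neurons hold more UMIs than those of glia, so these values are given without a test. The ratio between partners was not fixed. Rian UMIs were 9.35% ± 1.11 of Meg3 UMIs in CA1, 12.6% ± 1.50 in dentate granule neurons and 15.4% ± 3.15 in astrocytes (n = 15 each). The highest share was 23.1% ± 5.45 (n = 10) in GABAergic cluster 9, which is led by genes of neuroblasts.

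In the Snrpn-Ube3a domain on chromosome 7, Snhg14 was the member whose mean level in every neuron class stood above that in every non-neuronal class. It ran from 532 CPM in GABAergic cluster 9 to 1458 CPM in GABAergic cluster 4 among neurons, and from 190.3 to 529.7 CPM among non-neuronal classes. GABAergic cluster 9 (SD 129, n = 10) and pericytes or smooth muscle, at 529.7 CPM (SD 194, n = 15), overlapped within their spread. Ube3a had a median of 533 CPM over neuron classes and 219 CPM over non-neuronal ones, and was highest in unnamed cluster 5 at 924 CPM ± 452. Snhg14 was the gene most like Ube3a over classes, with an r of 0.939. The annotated spans of both overlap by 3613 bases on opposite strands, and Cell Ranger by default counts reads on the strand of the gene, but the sources used here do not give the setting, so counts in the overlap are uncertain.

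The other genes of that domain were lower and more restricted. Snrpn, which encodes a spliceosome protein of the brain, was highest in GABAergic cluster 9 at 272 CPM ± 98.0 (n = 10), a level that unnamed cluster 5 shared within its spread with 259 CPM ± 27.4. Ndn, which encodes necdin, a regulator of neuronal differentiation, and Magel2, which is linked to hypothalamic function, were highest in GABAergic cluster 29, at 49.5 CPM ± 18.7 and 15.2 CPM ± 12.2 (n = 14). Mkrn3, a brake on puberty, had 477 UMIs in all. It had 8.00 CPM ± 9.29 in GABAergic cluster 9 and 3.11 CPM ± 1.29 in oligodendrocyte precursor cells (OPC), and its median over neuron classes was 0.0753 CPM. Its r with Snrpn, Snhg14, Ndn, Magel2 and Ube3a over classes was negative, from −0.16 to −0.46. The 5 genes most like Snrpn were Usp29 (0.866), Chga, Ube3a, Snhg14 and Tenm2 (0.852).

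**Figure D2:**
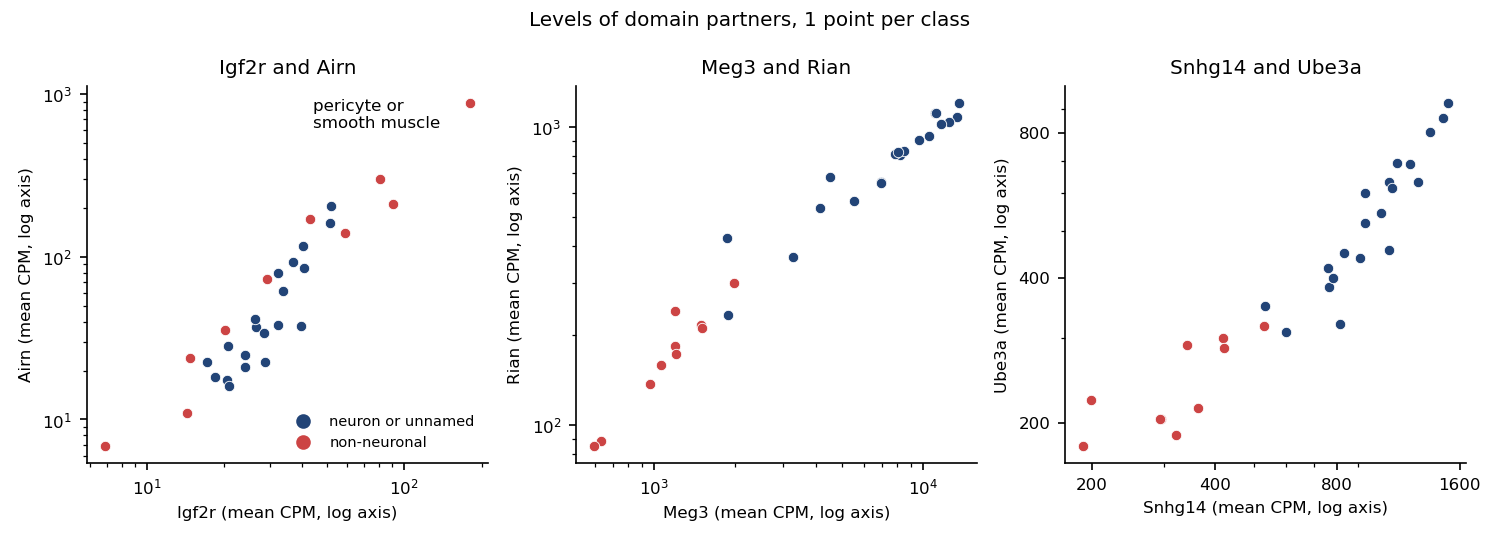
Mean CPM of domain partners per class on log axes, with 1 point for each of 30 classes: Igf2r against Airn, Meg3 against Rian, and Snhg14 against Ube3a. Pericytes or smooth muscle stand apart at the top of the first panel, at 179.5 CPM of Igf2r and 881 CPM of Airn.

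Peg3 and Usp29 start back to back on chromosome 7 and followed each other over classes with an r of 0.858, though Usp29 was only the 14th gene in likeness to Peg3. Peg3, a zinc finger protein whose loss impairs maternal care in mice, had 624 CPM ± 89.3 in unnamed cluster 5 and 592 CPM ± 94.7 in thalamic or habenular cluster 2. CA1 had 149.5 CPM ± 23.3 and dentate granule neurons 123 CPM ± 13.7. The 5 genes most like it were Mirg (0.880), Spag4, Zranb2, Slc4a3 and AI854703 (0.875). Usp29, a ubiquitin protease gene, was highest in GABAergic cluster 29 at 764 CPM ± 195 and lowest in newly formed oligodendrocytes at 19.3 CPM. Zim1, a zinc finger gene next to Peg3, had 15.6 CPM ± 4.58 in GABAergic cluster 4, where it was highest.

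The Peg10-Sgce domain on chromosome 6 held members with quite different maps. Sgce, which encodes a sarcoglycan mutated in myoclonus dystonia, had 279 CPM ± 81.0 in GABAergic cluster 9 and was highest there in 10 of 10 mice. Microglia and vascular leptomeningeal cells followed at 136 CPM ± 17.3 and 135 CPM ± 32.2. Peg10, a gene derived from a retrotransposon, was highest in thalamic or habenular cluster 7 at 13.5 CPM ± 14.0 (n = 12), a cluster in which 982 of 1197 nuclei came from NP mice. Asb4, a ubiquitin ligase adaptor, had 17.2 CPM ± 16.4 in endothelial cells and 1.12 CPM in the next class. Calcr, the calcitonin receptor, had 99 UMIs in all and was highest in GABAergic cluster 6 at 1.33 CPM ± 3.18 (n = 9), where most mice had none.

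Igf2 and Plagl1 had their highest levels outside neurons. Igf2, a growth factor read from the paternal copy in most tissues, had 131 CPM ± 56.5 in vascular leptomeningeal cells, 60.4 CPM ± 29.3 in choroid plexus, 38.3 CPM ± 35.0 in pericytes or smooth muscle and 26.3 CPM ± 25.0 in endothelial cells. No neuron class exceeded 0.659 CPM. The genes most like Igf2 over classes were Slc6a20a (0.968), Pcolce, Gstm2, Slc22a8 and 9130008F23Rik (0.922). H19, its non-coding neighbour, had 28 UMIs in all libraries together. Plagl1, a zinc finger regulator of growth, was highest in ependymal cells (82.0 CPM ± 51.4, n = 10) and choroid plexus (80.0 CPM ± 29.7, n = 13).

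Igf2r, the receptor that clears IGF2, and Airn, the RNA that silences it on the paternal copy, shared their highest class. In pericytes or smooth muscle Igf2r had 179.5 CPM ± 65.0 and Airn 881 CPM ± 271, and each was highest there in 15 of 15 mice. The next classes were ependymal cells for Igf2r, at 90.2 CPM ± 43.6, and vascular leptomeningeal cells for Airn, at 303 CPM ± 62.0. Microglia were lowest for both, at 6.86 and 6.85 CPM. Airn was the gene most like Igf2r over classes, with an r of 0.930. The spans overlap by 28354 bases on opposite strands, so the same doubt holds for this pair.

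In the Kcnq1ot1 domain the non-coding RNA and the protein-coding genes had different maps. Kcnq1ot1 was highest in choroid plexus (1408 CPM ± 239.6) and Cajal-Retzius neurons (1283 CPM ± 130.5), and no class mean was below 263 CPM. Cdkn1c, an inhibitor of the cell cycle, was also highest in choroid plexus (49.2 CPM ± 22.0), ahead of endothelial cells (24.8 CPM ± 20.1), but its median over neuron classes was 0.143 CPM. The r between both genes over classes was 0.038. Phlda2, a brake on placental growth, had 10 UMIs in all.

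Among the remaining members, Grb10, an adaptor that dampens insulin signalling, had 304 CPM ± 78.6 in thalamic or habenular cluster 7 and 272 CPM ± 23.9 in choroid plexus, against 19.3 CPM in CA1. Nnat, a membrane protein of neural development, had 739 CPM ± 370 in ependymal cells and 393 CPM ± 121 in GABAergic cluster 9. Mest, linked to lipid metabolism and growth, had 69.5 CPM ± 16.5 in choroid plexus and 44.5 CPM ± 11.5 in mossy cells. Zdbf2 was highest in GABAergic cluster 6 (70.2 CPM ± 48.5) and lowest among neurons in dentate granule neurons (9.25 CPM). Gnas, which encodes a stimulatory G protein subunit, Blcap, Impact, an inhibitor of a stress kinase, and Trappc9, a trafficking protein, had ratios of the neuron to the non-neuronal median of 0.923 to 1.04. Single classes still differed, as in Gnas, which ran from 38.1 CPM in GABAergic cluster 36 to 402 CPM in vascular leptomeningeal cells, and Trappc9, which ran from 108 CPM in GABAergic cluster 9 to 307 CPM in choroid plexus. Peg13, a non-coding RNA inside an intron of Trappc9, had an r of 0.060 with it over classes. All 4725 bases of Peg13 lie in the span of Trappc9 on the same strand, so its counts, here and in the comparisons between groups, are uncertain. Nnat lies wholly within the span of Blcap on the other strand, with the doubt on strand given above, and their r was 0.352.

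Mice differed from each other in Ube3a within most neuron classes far more than within glia. In CA1 the lowest, median and highest NP mice had 153, 394 and 685 CPM. The control RE mice had 253, 447, 528 and 696 CPM, and the stress RE mice 149, 268, 475, 542 and 773 CPM. The groups overlapped over nearly their whole range. The SD over 15 mice was 43.99% of the mean, rank 31 among 1598 genes with at least 100 CPM in CA1, whose median was 10.8%. Dentate granule neurons gave a similar picture, from 159 to 668 CPM with an SD of 38.4%, rank 40 of 1732 genes. In oligodendrocytes the range was 143 to 239.7 CPM with an SD of 10.9%, and in astrocytes 139 to 219.9 CPM with an SD of 9.60%.

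The same mice were mostly lowest in neuron and non-neuronal classes, and the highest mouse varied between neuron classes. Over 14 neuron classes with at least 10 mice, the SD of Ube3a was 16.5% to 50.6% of the mean, with a median of 44.8%. Over 10 non-neuronal classes it was 9.60% to 28.3%, with a median of 14.6%. GABAergic cluster 9, at 16.5%, and Cajal-Retzius neurons, at 21.5%, lay within that range. NP mouse 31 or stress RE mouse 70 was lowest in 13 of the 14 neuron classes and in 9 of the 10 non-neuronal ones. Both mice belong to batch 1, whose remaining mouse, 27, had 426 CPM in CA1, near the middle of the range. Mice 31 and 70 lost 42 and 58 barcodes to the filters, against 0 to 4 in all others. Their median UMI counts per barcode were 3993 and 6798, of 3993 to 8754 over all libraries. Mice 31, 27 and 70 of batch 1 had 40602582, 46830229 and 56502443 UMIs, against 65872952 or more in all others. They had 6771, 6306 and 5789 barcodes, against 7805 or more in all others. Stress RE mouse 75 was highest in CA1, and mouse 31 had the lowest Snhg14 there, at 643 CPM of a range up to 1055 CPM. The part of depth, batch and RNA quality in this spread was not tested.

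**Figure D3:**
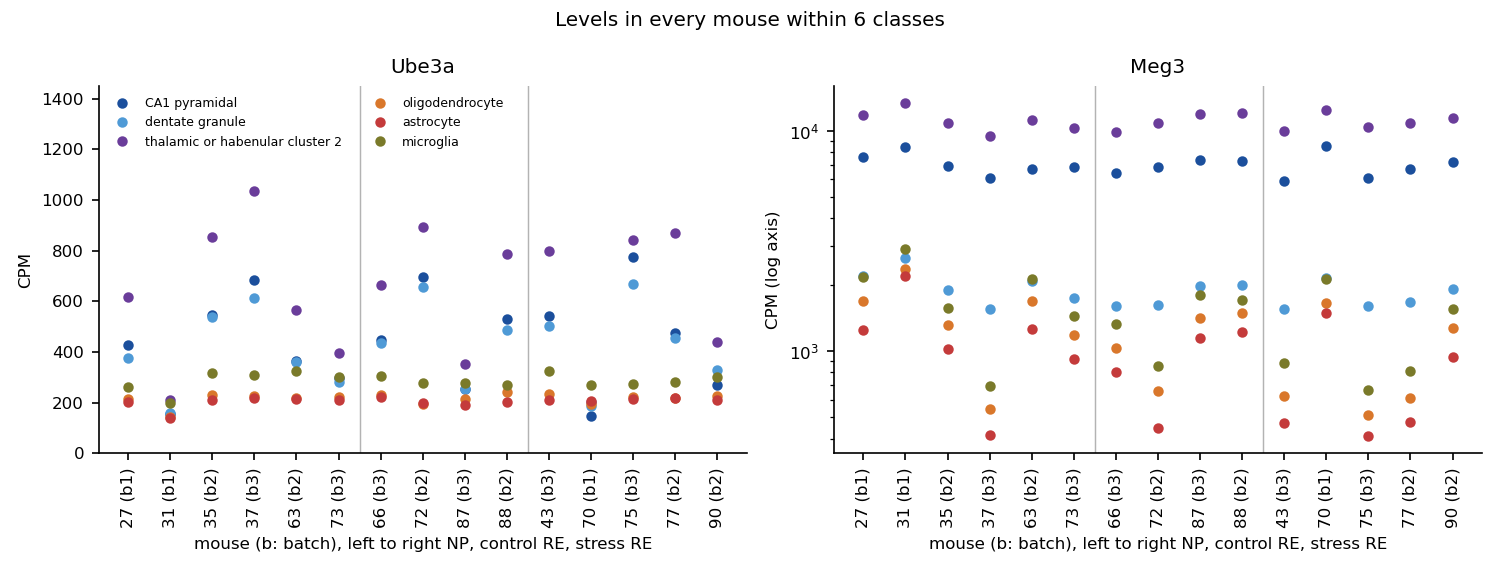
CPM of Ube3a (left) and Meg3 (right, log axis) in every mouse within 3 neuron classes (blue and purple) and 3 glial classes (orange, red and olive), with mice grouped from left to right as NP, control RE and stress RE. Ube3a spreads from 149 to 773 CPM in CA1 but from 139 to 219.9 CPM in astrocytes, and Meg3 spreads more in glia than in CA1.

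Meg3 showed the reverse pattern, with a wider spread in glia than in CA1. Rian and Snhg14 shared it, with SDs of 8.97% and 11.1% of the mean in CA1. Their SDs were 34.6% and 28.3% in astrocytes, 33.1% and 29.9% in oligodendrocytes, and 34.6% and 32.4% in microglia. In CA1 Meg3 ran from 5905 to 8525 CPM, an SD of 11.1% of the mean. In astrocytes it ran from 409.8 to 2185 CPM (SD 51.2%), in oligodendrocytes from 512 to 2346 CPM (44.7%) and in microglia from 668 to 2908 CPM (43.4%). The same 5 mice, 37, 43, 72, 75 and 77, were lowest in all 3 glial classes, and 3 of them were stress RE, 1 NP and 1 control RE mice. The median of the stress RE mice was below that of the NP mice in each, at 479 against 1137 CPM in astrocytes, 624 against 1498 CPM in oligodendrocytes and 884 against 1848 CPM in microglia. The control RE medians lay between them, at 972, 1218 and 1513 CPM. The groups overlapped, and none of the 3 differences passed the test (unadjusted p of 0.139, 0.103 and 0.0957 by edgeR). Mouse 75, lowest in all 3, had the highest Ube3a in CA1, and mouse 31, highest in all 3, had the next to lowest Ube3a there. Markers of neurons were counted in these glia too. In astrocytes 8 of 8 dentate granule markers had UMIs, with a summed level of 1233 to 1743 CPM in NP, 1433 to 1881 CPM in control RE and 1259 to 1744 CPM in stress RE mice. In microglia 8 of 8 had UMIs, with 629 to 874, 573 to 953 and 507 to 991 CPM. In oligodendrocytes 8 of 8 had UMIs, with 1124 to 1425, 1074 to 1419 and 1034 to 1403 CPM. In the 5 mice low in Meg3 the dentate granule markers summed to 507 to 642 CPM in microglia, against 627 to 991 CPM in the others. In oligodendrocytes this was 1034 to 1248 against 1124 to 1425 CPM, and in astrocytes 1259 to 1686 against 1233 to 1881 CPM. The 7 CA1 markers summed to 2715 to 4145, 3166 to 3579 and 2942 to 3503 CPM in oligodendrocytes, where mouse 37 was highest. In astrocytes they summed to 128 to 176 CPM in the 5 mice low in Meg3 and 173 to 390 CPM in the others. The 5 GABAergic markers summed to 317 to 652, 336 to 413 and 370 to 472 CPM in astrocytes. Rian made up 15.4% of Meg3 UMIs in astrocytes and 14.8% in microglia, against 9.35% in CA1, and the dentate granule and GABAergic cluster 9 shares given above lie on either side of the glial ones. The part of free RNA from neurons in the glial levels was not tested.

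Across the whole punch, no member passed the test in any of the comparisons between groups. Control RE against NP asks for a lasting difference after reproductive experience. Of 32 members tested by edgeR's quasi-likelihood test, 0 had a Benjamini-Hochberg adjusted p under 0.05, against 0.00473% of the 21159 genes tested, which was 1 gene, Zic5, a gene outside the list, named after its value was seen. At an unadjusted p under 0.05 there were 3 members, all lower in control RE, against 3.99% of all genes, of which 188 were higher and 657 lower. The median log2 fold change of the members was −0.18, with 8 higher and 24 lower, and that of all genes −0.02. Batch 1 held 2 NP mice and 0 control RE mice. Of the batches it had the highest mean of some members, among them Meg3 and Peg3, and the lowest of others, among them Ube3a and Snhg14. The part of batch in the lean of the members was not tested. In a whole punch, fewer cells of a type and less RNA per cell cannot be told apart.

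Cdkn1c had the lowest p of the members in this comparison. The lowest, median and highest NP mice had 0.382, 1.26 and 1.58 CPM, and the control RE mice 0.374, 0.664, 0.666 and 0.672 CPM, counted from 166 UMIs in the control RE group. All control RE mice lay below 5 of the 6 NP mice, and NP mouse 63 lay among them. This was a log2 fold change of −0.88 (SE 0.37, unadjusted p = 0.0296, adjusted p = 0.926 by edgeR), and the control RE mean was lower within both batches that held the 2 groups, at 0.520 against 0.846 CPM in batch 2 and 0.668 against 1.09 CPM in batch 3. Batch 1 held no control RE mouse. Choroid plexus, where Cdkn1c is highest, gave 334 nuclei over the 6 NP mice, 147 of them from mouse 35 and fewer than 10 from mouse 63. It gave 198 over the 4 control RE mice, and the part of these numbers in the difference was not tested.

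Zdbf2 had 17.9, 19.7 and 24.9 CPM in the lowest, median and highest NP mice and 12.6, 13.5, 17.1 and 17.9 CPM in the control RE mice. Its log2 fold change was −0.36 (SE 0.15, unadjusted p = 0.0297, adjusted p = 0.926 by edgeR), with differences of mean log2(CPM + 1) of −0.51 and −0.21 within batches 2 and 3. The highest control RE mouse and the lowest NP mouse both stood at 17.9 CPM. Grb10 had 52.0, 73.5 and 95.1 CPM in NP and 44.9, 46.6, 60.1 and 65.1 CPM in control RE mice. The fold change was −0.38 on the log2 scale (SE 0.16, unadjusted p = 0.0311, adjusted p = 0.926 by edgeR), with −0.61 and −0.22 within the batches. NP mouse 35 lay within the control RE range, and the other NP mice lay above it. The share of thalamic or habenular cluster 7, where Grb10 is highest, moved with the groups, at 982 nuclei over the 6 NP mice, 353 of them from mouse 37, and 52 over the 4 control RE mice. Its part in the difference was not tested.

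**Figure D4:**
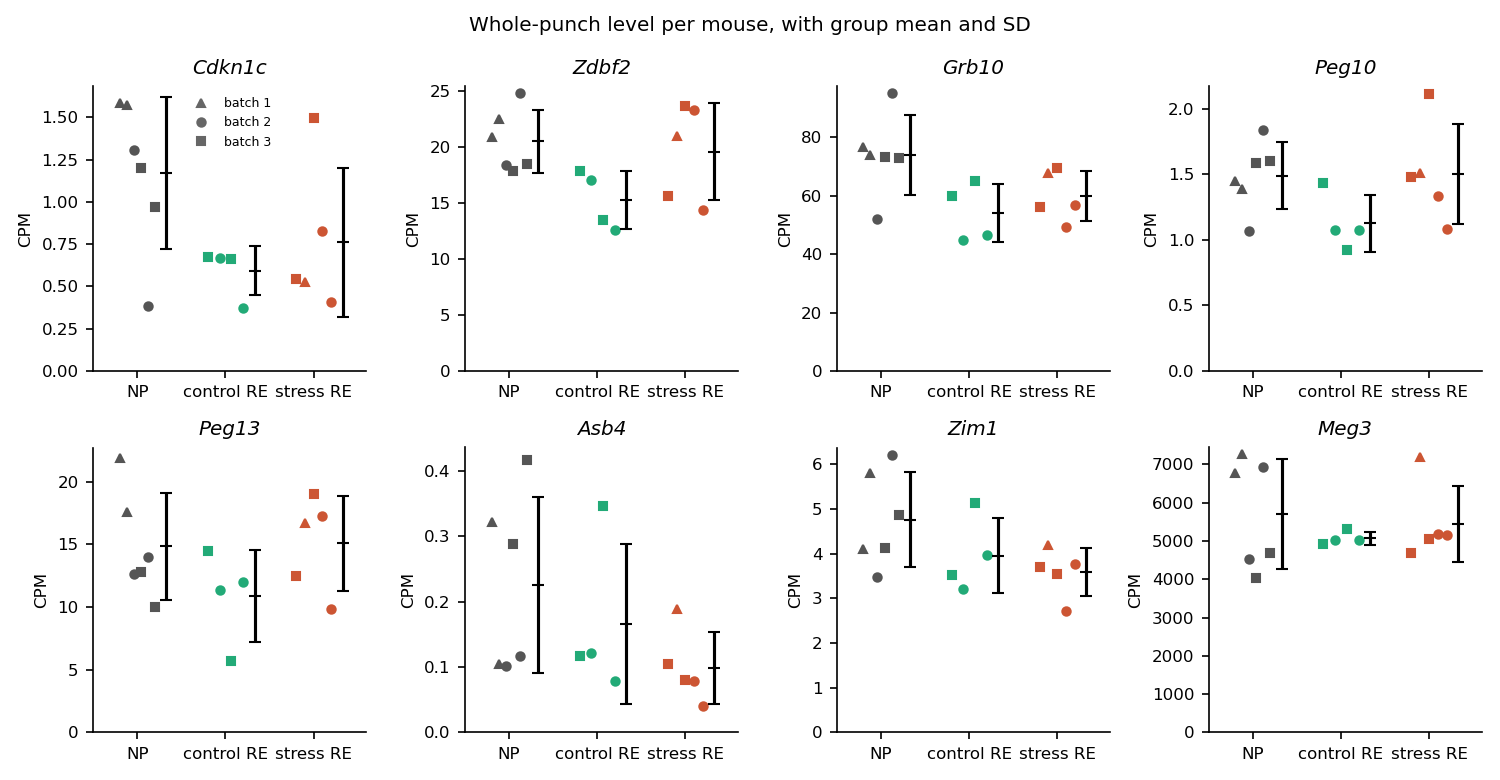
Whole-punch CPM per mouse (vertical axes from 0) for the 7 members named in the group comparisons and Meg3, by group, with symbols for batch and bars for the group mean and SD. For every member shown, the stress RE points overlap those of both other groups.

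Stress RE against control RE asks whether late postpartum stress altered that outcome. No member of 32 passed the adjusted threshold, and 0.0% of 21159 genes did. At an unadjusted p under 0.05 there was 1 member, Zdbf2, against 0.86% of all genes (123 higher, 59 lower). The median log2 fold change of the members was 0.08, with 21 higher and 11 lower in stress RE, and that of all genes 0.01. Zdbf2 had 14.4, 15.6, 21.0, 23.3 and 23.7 CPM in stress RE mice, of which 3 lay above and 2 within the control RE range given above. Its log2 fold change was 0.35 (SE 0.16, unadjusted p = 0.0411, adjusted p = 1.000 by edgeR), with 0.30 and 0.29 within batches 2 and 3.

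Peg10 and Peg13 came next in order of p. Peg10 had 0.924, 1.07, 1.07 and 1.43 CPM in control RE and 1.08, 1.33, 1.48, 1.51 and 2.11 CPM in stress RE mice, with a log2 fold change of 0.40 (unadjusted p = 0.0673). Within batches the stress RE and control RE means were 1.21 and 1.07 CPM in batch 2 and 1.80 and 1.18 CPM in batch 3. Peg13 had 5.73, 11.4, 12.0 and 14.4 CPM in control RE and 9.88, 12.5, 16.7, 17.3 and 19.01 CPM in stress RE mice, with a log2 fold change of 0.46 (unadjusted p = 0.0847) and within-batch values of 0.15 and 0.69. Without control RE mouse 87 the fold change of Peg13 was 0.25, the lowest of a range up to 0.61 on leaving out each mouse. The groups overlapped for both genes, and neither difference passed the test.

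Stress RE against NP gave no member of 32 past the adjusted threshold, against 0.0% of 21159 genes. At an unadjusted p under 0.05 there was 1 member, Asb4, which was lower in stress RE, against 3.94% of all genes (266 higher, 568 lower), and the median log2 fold change of the members was −0.02, with 15 higher and 17 lower. Asb4 rested on few molecules, 81 UMIs in NP and 32 in stress RE mice. It had 0.102, 0.203 and 0.417 CPM in the lowest, median and highest NP mice and 0.0406, 0.0783, 0.0795, 0.104 and 0.188 CPM in stress RE mice. The log2 fold change was −1.16 (SE 0.51, unadjusted p = 0.0378, adjusted p = 0.999 by edgeR), and the stress RE and NP means were 0.188 and 0.213 CPM in batch 1, with 1 stress RE mouse, 0.0595 and 0.110 CPM in batch 2, and 0.0917 and 0.353 CPM in batch 3.

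Zim1 and Cdkn1c followed. Zim1 had 3.47, 4.49 and 6.20 CPM in the lowest, median and highest NP mice and 2.72, 3.54, 3.70, 3.78 and 4.18 CPM in stress RE mice, a log2 fold change of −0.34 (unadjusted p = 0.104). Within batches 1 to 3 the difference of mean log2(CPM + 1) was −0.19, −0.43 and −0.25, and without NP mouse 63 the fold change was −0.22. Cdkn1c had 0.406, 0.528, 0.543, 0.830 and 1.49 CPM in stress RE mice, a log2 fold change of −0.57 (unadjusted p = 0.112), and −0.90 without mouse 75. Its stress RE and NP means were 0.528 and 1.58 CPM in batch 1, 0.618 and 0.846 CPM in batch 2, and 1.02 and 1.09 CPM in batch 3. Both groups overlapped for each gene.

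**Figure D5:**
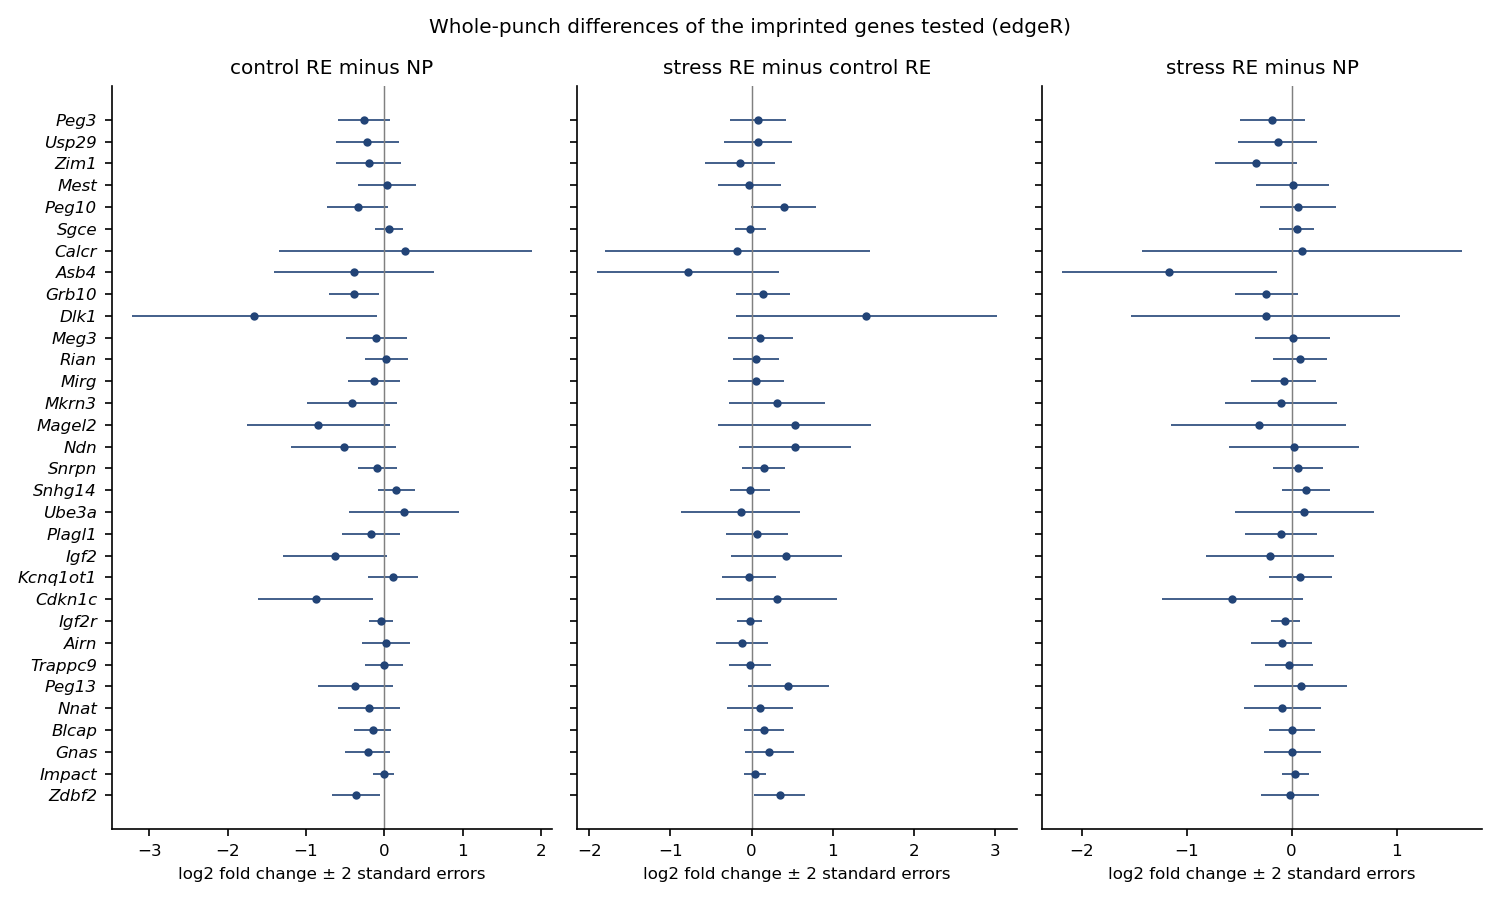
Log2 fold change (horizontal axis) with 2 standard errors on either side for the 32 members tested in the whole punch (vertical axis), for control RE minus NP, stress RE minus control RE and stress RE minus NP. For control RE minus NP the standard error ran from 0.0676 in Impact to 0.805 in the rarely counted Calcr, with 0.192 in Meg3, and 0 members passed the adjusted threshold.

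The intervals show what size of difference the punches could have held. For Meg3, 2 standard errors on either side of the control RE minus NP fold change ran from −0.48 to 0.29, and for Snhg14 from −0.09 to 0.39. For Ube3a they ran from −0.45 to 0.96. For Igf2 they ran from −1.30 to 0.03 around −0.63, with 277 UMIs in 4 control RE and 542 in 6 NP mice. In batch 2 the NP mice had 0.793 and 0.935 CPM of Igf2 and the control RE mice 0.872 and 1.03 CPM. In batch 3 the NP mice had 1.27 and 2.22 CPM and the control RE mice 0.722 and 1.33 CPM. The NP mice of batch 1, which held no control RE mouse, had 1.73 and 2.82 CPM. Whole-punch Meg3 was 6790.2, 7282 and 7195 CPM in the batch 1 mice and 6945 CPM in NP mouse 63, and 4044 to 5311 CPM in all others. H19 and Phlda2 were too rare to be tested.

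Within classes, 29 of the members had enough counts for a test in at least 1 class. Control RE against NP gave 0 of 506 pairs of member and class at an adjusted p under 0.05, against 0.0% of 227659 pairs over all genes, and 12 at an unadjusted p under 0.05 (4 higher, 8 lower), against 3.25% over all genes (2969 higher, 4424 lower). Stress RE against control RE gave 0 of 528, against 0.00168% of 238459 pairs, and 15 unadjusted (11 higher, 4 lower), against 2.86% (3786 higher, 3024 lower). Stress RE against NP gave 0 of 547, against 0.0% of 241803 pairs, and 23 unadjusted (5 higher, 18 lower), against 3.58% (3715 higher, 4941 lower). The 4 pairs called over all genes, named after their values were seen, were Zbtb16, Shisa9 and Mrtfb in Cajal-Retzius neurons and Zbtb16 in OPC, all lower in stress RE.

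Cortical excitatory neurons, a class not counted as dHF, gave the lowest p for control RE against NP, that of Ndn. It had 15.8, 23.0 and 43.9 CPM in the lowest, median and highest NP mice and 6.46, 9.30, 13.8 and 15.1 CPM in control RE mice, without overlap, from 3 to 72 UMIs per mouse. The fitted difference was −1.18 on the log2 scale (SE 0.31, unadjusted p = 0.00145, adjusted p = 0.681 by edgeR), with −0.82 and −0.84 within batches 2 and 3. In the same class Peg13 had a log2 fold change of −1.01 (SE 0.31, unadjusted p = 0.00521, adjusted p = 0.681 by edgeR), from 16.9 to 37.1 CPM in NP and 6.46, 15.6, 18.6 and 21.1 CPM in control RE mice. These Peg13 values rested on 5 to 69 UMIs per NP mouse and 6 to 95 per control RE mouse. Across the whole punch Ndn had a log2 fold change of −0.52 (unadjusted p = 0.144 by edgeR). Whole-punch Ndn and Peg13 were both highest in NP mouse 27 and lowest in control RE mouse 87. Sgce in GABAergic cluster 29 was higher in control RE, at 89.6, 90.6, 103 and 125 CPM, than in NP mice, whose lowest, median and highest values were 38.5, 56.3 and 87.9 CPM, without overlap. Its log2 fold change was 0.70 (SE 0.22, unadjusted p = 0.00399, adjusted p = 1.000 by edgeR). Sgce rested on 4 to 46 UMIs per NP mouse and 16 to 60 per control RE mouse. Within batches 2 and 3 Sgce differed by 1.00 and 0.85 and Peg13 by −1.02 and −0.95. Rian in newly formed oligodendrocytes had a log2 fold change of −0.85, with −1.04 and −0.18 within the batches and overlap between the groups.

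For stress RE against control RE, Ndn in cortical excitatory neurons had 18.3, 20.4, 24.2 and 25.4 CPM in the 4 stress RE mice with enough nuclei, all above the control RE mice given above. The log2 fold change was 0.91 (SE 0.30, unadjusted p = 0.00799, adjusted p = 1.000 by edgeR), with 0.91 and 1.27 within batches 2 and 3, batch 3 with 1 stress RE mouse. Ube3a in GABAergic cluster 36 had 210, 315 and 379 CPM in control RE and 433, 484 and 658 CPM in stress RE mice, without overlap, and 249 and 481 CPM in NP mice. This gave a log2 fold change of 0.80 (SE 0.26, unadjusted p = 0.00838, adjusted p = 0.325 by edgeR). The control RE mice gave 156 nuclei to this cluster and the stress RE mice 1139, 816 of them from mouse 75, the mouse with the highest Ube3a in CA1 as well. Within batches 2 and 3 the difference of mean log2(CPM + 1) was 0.35, with 1 mouse on each side, and 1.05. Leaving out 1 of these mice falls under the minimum of 3 per group, so no value was computed without mouse 75. Snrpn in the same cluster had a log2 fold change of 0.52, with 0.80 and 0.40 within the batches. Blcap in GABAergic cluster 4 had one of 0.60, with 0.14 in batch 2 and 1.12 in batch 3, and the groups overlapped, at 13.8 to 23.9 CPM in control RE and 16.4 to 40.4 CPM in stress RE mice.

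For stress RE against NP, Grb10 in microglia was lower without overlap. NP mice had 16.0, 25.0 and 34.9 CPM at the lowest, median and highest, and stress RE mice 5.04, 10.8, 12.3, 13.2 and 13.3 CPM, from 4 to 24 UMIs per mouse. The log2 fold change was −1.15 (SE 0.33, unadjusted p = 0.00284, adjusted p = 0.873 by edgeR), with −1.06, −1.57 and −0.46 within batches 1 to 3. The control RE mice had 6.46, 21.9, 22.1 and 26.0 CPM. Usp29 in OPC had a log2 fold change of −0.34 and ranged from 92.9 to 153 CPM in NP and from 90.2 to 102 CPM in stress RE mice, with −0.41, −0.52 and −0.12 within the batches.

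Meg3 in choroid plexus had a log2 fold change of −1.17 (SE 0.40, unadjusted p = 0.00871, adjusted p = 1.000 by edgeR). It ran from 301 to 606 CPM in the 4 stress RE mice and from 447 to 1911 CPM in the 5 NP mice with enough nuclei, the highest being mouse 31 of batch 1, without which the fold change was −0.68. No stress RE mouse of batch 1 had enough nuclei, and within batches 2 and 3 the difference of mean log2(CPM + 1) was −0.41 and −0.57, the former with 1 NP mouse. Snhg14 in pericytes or smooth muscle had a log2 fold change of −0.72 and ran from 239.7 to 684 CPM in stress RE and 298 to 829.9 CPM in NP mice, with −0.73, −0.90 and −0.51 within batches 1 to 3. Snhg14 also varied between libraries in astrocytes, from 128 to 406 CPM, and Meg3 as described above, and the part of that variation in these differences was not tested.

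Of 46 other imprinted genes, 40 could be tested in the whole punch, and 0 passed the adjusted threshold in any comparison. At an unadjusted p under 0.05 there were Gab1 (log2 fold change −0.40) and Dcn (−0.87), both lower in control RE than in NP mice, against the 3.99% of all genes given above, which were also mostly lower, and 0 in the comparisons with stress RE. Of 8 factors that maintain imprints, among them Zfp57, Trim28, Dnmt1 and Ctcf, 0 had an unadjusted p under 0.05 in the whole punch in any comparison, where 3.99%, 0.86% and 3.94% of all genes did.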

How the data were processed

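The authors deposited UMI counts per gene and barcode for each mouse, made with Cell Ranger (7.1.0 per the labels, 7.0.0 per the file headers) against mm10 and limited to barcodes called as nuclei. The values are whole and uncorrected for free RNA, doublets or depth. Groups and batches came from the labels, and each mouse is 1 replicate. The members, gene lists and tests were chosen with earlier results of these data known.

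Filters dropped barcodes with fewer than 200 genes or more than 5% of UMIs from mitochondria, and the barcodes with the highest Scrublet scores were removed as doublets at 0.8% per 1000 barcodes. Nuclei were clustered in scanpy 1.11.5 (2000 variable genes without the members, 30 components, 15 neighbours, Leiden resolution 1 with igraph 0.11.9) and named from fixed marker lists, needing at least 3 detected markers. Naming thresholds were taken over from earlier work on these data. Positions came from the GENCODE annotation of GRCm38, and sequences from RefSeq tables of GRCm38.p6.

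Counts were summed per mouse, and per mouse and class with at least 10 nuclei. Classes needed 3 such mice in each group compared. edgeR 4.0.16 in R 4.3.3 (filterByExpr, TMM, quasi-likelihood test, all groups in 1 fit) gave fold changes and Benjamini-Hochberg adjusted p over all genes tested, with SE as the absolute log2 fold change over the root of F. The scripts were tested on simulated data. Named were, for each comparison in the whole punch, members with an unadjusted p under 0.05 and at least the 3 with the lowest p, and by class the 4 pairs with the lowest p. DESeq2 1.42.0, RLE size factors, no filter on low counts, batch as a term and doublets kept were alternatives. So were classes counted as dHF only, 20 nuclei per mouse, Leiden resolution 0.5 and leaving out each mouse. Cortical excitatory, thalamic or habenular, vascular, meningeal, choroid plexus, ependymal and unnamed classes were not counted as dHF. Every GABAergic cluster was, also that led by striatal genes. Likeness used Pearson r over class means for genes with at least 5 CPM in a class. Columns with fold changes of the authors were not used. The library totals set the precision, which is counting error for rare members.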

Additional observations from a re-analysis of the deposited data

Results flagged for a closer look

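In 9 of 102 groups of whole-punch levels tested, 1 mouse stood apart from the others of its group by Dixon's criterion. Chance alone would flag about 1 in 20 groups. Cdkn1c in control RE mouse 88 was low at 0.374 CPM, with the other mice at 0.664 to 0.672 CPM. The remaining 8 were high. Meg3 had 7195 CPM in stress RE mouse 70, against 4681 to 5182 CPM in the others of the group, and that mouse is of batch 1. Usp29 had 404 CPM in NP mouse 63, against 198 to 269 CPM, and Blcap 32.3 CPM in NP mouse 31, against 19.2 to 23.4 CPM. In stress RE mouse 75, Igf2r had 26.3 CPM, against 24.5 to 24.9 CPM, and Calcr 0.366 CPM, against 0 to 0.0578 CPM, from 35 UMIs in the whole group. In control RE mouse 87, Trappc9 had 181 CPM, against 148 to 152 CPM, and Asb4 0.347 CPM, against 0.0779 to 0.121 CPM. Impact had 107 CPM in control RE mouse 66, against 93.2 to 95.5 CPM. The causes were not tested.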

How the results depend on the processing

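Across 448 alternative values of the 21 named log2 fold changes, 446 kept their direction and their side of the threshold, 0 reversed, and 2 passed the threshold without a filter on low counts: Ube3a in GABAergic cluster 36, stress RE minus control RE, at 0.86 (adjusted p = 2.82e-06), and Meg3 in choroid plexus, stress RE minus NP, at −1.10 (adjusted p = 0.000132). The number of members called by class was then 1 in stress RE minus control RE and 1 in stress RE minus NP, while 458 and 152 pairs over all genes were called. The cause was not tested. In every other alternative run, leaving out each mouse included, 0 members were called. Leaving out 1 of the 6 RE mice of GABAergic cluster 36 falls under the minimum of 3 per group and was not run, so Ube3a and Snrpn there were not checked in this way. The 448 values also count runs that left out a mouse outside the comparison. The 21 fold changes were named for a low p in these data, so kept directions are no independent check. Without the batch 1 mice, an alternative chosen after seeing the data, the whole-punch counts at an unadjusted p under 0.05 were 2, 1 and 0 of 30 members, against 428, 209 and 582 of 21030 genes (control RE minus NP, stress RE minus control RE and stress RE minus NP). Leaving out each mouse gave Cdkn1c −1.05 to −0.72, Zdbf2 −0.43 to −0.27 and Grb10 −0.49 to −0.27 (control RE minus NP), and Asb4 −1.51 to −0.85 (stress RE minus NP). The highest class was the same for 30 of 34 members with counts pooled over mice, 25 at Leiden resolution 0.5 and 20 by the share of nuclei with a UMI after thinning to 1000 UMIs. No paired analysis was possible because the labels number no replicates across groups. Depth limits the rare members, such as Dlk1, Calcr, H19 and Phlda2.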

Other observations

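A gene outside the list, Nrg3os, an antisense transcript at 14:38898302-38958794, was looked at after its values were seen because it varied between mice along with Ube3a. In CA1 it ran from 41.8 CPM in NP mouse 31 and 42.1 CPM in stress RE mouse 70 to 458 CPM in stress RE mouse 75, the mice with the lowest and the highest Ube3a there. In dentate granule neurons it ran from 57.0 to 498 CPM, and in astrocytes, at a lower level, from 2.84 to 27.5 CPM. The astrocyte range rests on 4 UMIs in its lowest mouse, 31, and 46 in its highest, control RE mouse 88, while mouse 75 had 6.82 CPM there. Cell Ranger by default counts reads on the strand of the gene, but the sources used here do not give the setting, so the strand of its counts is uncertain.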
